A study of Mus musculus with 4 samples.

Results

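Genes of the transforming growth factor beta (TGF-beta) system were followed, 10 of the 27998 genes counted in single regulatory T (Treg) cells of the mouse thymus. They were chosen by role and not by a measured value, though with earlier results of these data known. They are the ligand gene Tgfb1, the surface molecules that hold or activate it (Lrrc32, Nrp1, Itgb8 and Itgav) and the integrin chain Itgae. The others are the receptors Tgfbr1 and Tgfbr2 and the intracellular genes Smad3 and Smad7. All 10 were in the count table, with 192 UMIs for Smad3 at the low end and 10815 for Tgfb1 at the high end. A UMI, or unique molecular identifier, stands for 1 captured transcript.

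The series asked what IL-2 and IL-15 contribute to Treg development in the thymus. It has 4 samples, 1 per genotype, with strain labels ending IL2 wt/wt, IL2 o/o, IL15 wt/wt and IL15 o/o, the last of each pair being the knockout. All 4, wild types included, carried the reporters Rag2-Gfp, whose GFP marks recently formed T cells, and Foxp3-Thy1a, whose Thy1.1 marks cells that use the Treg gene Foxp3, in B6 mice 3 weeks old. The sort was CD4+CD8-Thy1.1+GFP+, followed by droplet capture of transcript 3' ends, and the labels do not give the number of mice behind a sample. Cell barcodes carried a suffix from 1 to 4, and cells with the same suffix are called a library. Neither labels nor headers give the genotype behind a suffix. The knockouts were therefore not compared with the wild types, and libraries 1 to 4 are described without a test.

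TGF-beta is secreted in a latent form, wrapped in its own propeptide. Treg cells can display this latent complex on their surface through GARP, the protein of Lrrc32, and the integrin made of the chains Itgav and Itgb8 can pull the active cytokine free. Active TGF-beta is bound by TGFBR2, which phosphorylates TGFBR1, and TGFBR1 in turn phosphorylates SMAD2 and SMAD3. SMAD7, itself induced by the pathway, blocks the receptors, and TGF-beta is known in the thymus for its part in the survival and Foxp3 expression of Treg precursors.

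The receptor genes are shown first, as the pair for which library 3 lay at opposite ends of the libraries. RefSeq promoter entries (GRCm38.p6) were found for 7 of the 10 genes, and not for Lrrc32, Itgae and Smad7. The 250 bases before the start site of Tgfbr1 (chr4:47352972-47353221, plus strand) and of Tgfbr2 (chr9:116175364-116175613, minus strand) read as follows, 5′ to 3′, with GC boxes (GGGCGG) in capitals for Tgfbr1 and the SMAD box (CAGAC) in capitals for Tgfbr2.
Tgfbr1: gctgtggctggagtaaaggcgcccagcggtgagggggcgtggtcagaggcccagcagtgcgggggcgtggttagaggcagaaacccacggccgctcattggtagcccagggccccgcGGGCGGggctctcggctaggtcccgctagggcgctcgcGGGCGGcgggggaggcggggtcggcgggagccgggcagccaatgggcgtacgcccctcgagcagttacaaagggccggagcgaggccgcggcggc
Tgfbr2: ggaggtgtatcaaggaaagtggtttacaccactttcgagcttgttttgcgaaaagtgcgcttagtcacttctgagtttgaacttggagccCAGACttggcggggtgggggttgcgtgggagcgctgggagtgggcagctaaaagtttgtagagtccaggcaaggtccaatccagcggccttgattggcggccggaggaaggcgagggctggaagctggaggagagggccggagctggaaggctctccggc
The Tgfbr1 stretch held 2 GC boxes, starting 133 and 95 bases before the start site, and 0 SMAD boxes. The Tgfbr2 stretch held 0 GC boxes and 1 SMAD box, starting 160 bases before it. Its GC content was 58.4%, against 74.8% for Tgfbr1. With both strands read, 42.2% of 32851 promoter windows held CAGAC, 32.7% held GGGCGG and 7.02% held TTCNNNGAA, a STAT motif letter pattern that was in neither stretch. Such matches describe letters only.

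The 4 libraries held 1609, 2452, 2037 and 2175 cells, with 5717732 to 11274713 UMIs in all and a median of 2501 to 3857 per cell. Library 3 stood apart. It had the fewest UMIs per cell and the fewest cells with a UMI of Il2ra, the high-affinity IL-2 receptor chain: 6.82% of cells, against 39.2%, 39.4% and 32.2% in libraries 1, 2 and 4. After each cell was thinned to 1811 UMIs these shares were 4.75% against 22.9%, 23.2% and 20.8%. Cells with UMIs of 3 or more of 8 G2 and M phase genes made up 0.589% of library 3 and 6.76% to 10.2% of the others. Summed Treg identity markers stood at 3261 UMIs per 1000000 UMIs (CPM) in library 3 and at 4073 to 4609 in the others. Foxp3, which is among these markers, did not follow the sum. It had 14.3, 12.6, 13.8 and 12.8 CPM in libraries 1 to 4, with library 3 inside the range of the others. Markers of double-positive thymocytes stood at 114 and 107 in libraries 3 and 4, and at 53.2 and 58.4 in libraries 1 and 2. NK, NKT and gamma delta T cell markers stood at 35.0 in library 3 and at 115 to 199.7 in the others. Erythroid transcripts stood at 1873 in library 3 and at most 6.21 in the others, while all 3 platelet markers, Itgax and Krt14 were at 0 everywhere. The part of these differences in what follows was not tested. The knocked-out genes were read in every library, Il2 at 30.2 to 42.7 CPM and Il15 with 1 to 8 UMIs. These 3' tags cannot check a deletion elsewhere in the gene. Across libraries, 27 barcodes were shared, each counted here as separate cells.

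Levels are in CPM, with exact Poisson 95% intervals. Shares of cells with a UMI have exact Clopper-Pearson 95% intervals. Both cover counting error only, since each genotype has 1 sample. A gene with at least 200 UMIs, as for 8071 of the 27998, counted as differing across libraries when the highest was at least 1.5-fold above the lowest. That held for 6 of the 9 genes of the system with enough UMIs, and for 27.8% of the 8071. Those 6 were Lrrc32, Nrp1, Itgb8, Itgae, Tgfbr1 and Tgfbr2. Without library 3 it held for 2, Itgb8 and Itgae.

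**Figure D1:**
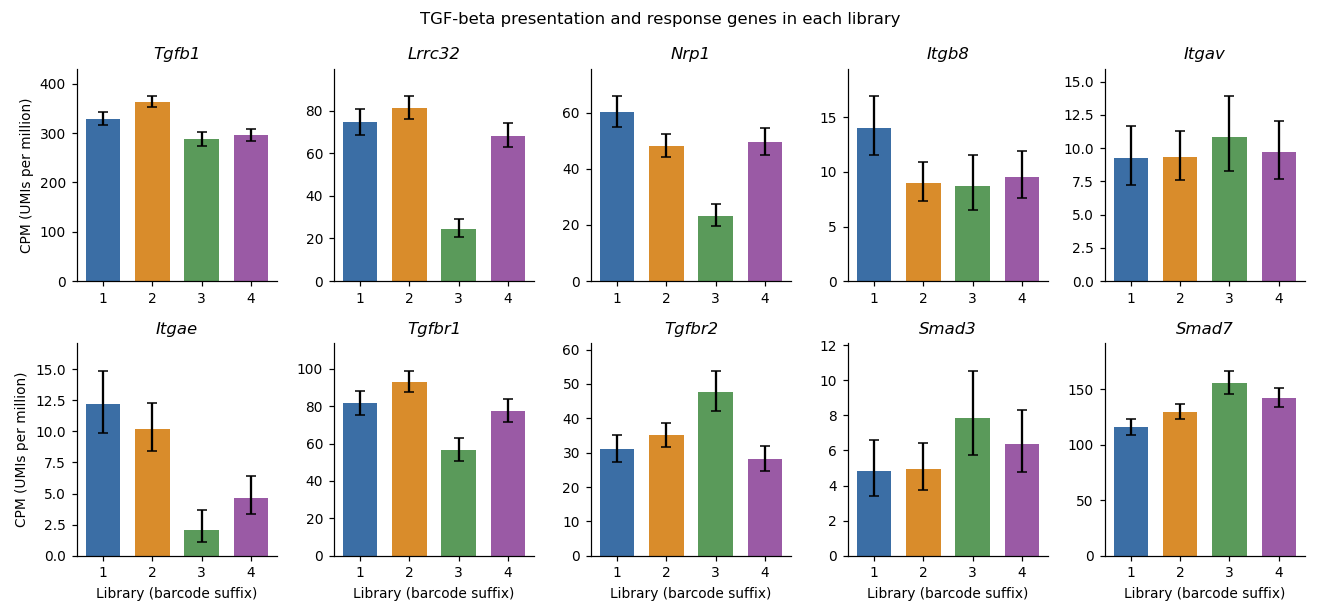
Level of each of the 10 genes (y axis, CPM; each panel has its own scale from 0) in libraries 1 to 4 (x axis), with exact Poisson 95% intervals as error bars. Library 3 is the lowest bar for Tgfb1, Lrrc32, Nrp1, Itgb8, Itgae and Tgfbr1 and the highest for Itgav, Tgfbr2, Smad3 and Smad7.

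Tgfb1 (chromosome 7, 25687002 to 25705077, GRCm38), the ligand gene, had 329, 364, 288 and 296 CPM in libraries 1 to 4. The highest was 1.26-fold above the lowest, and only Itgav varied less. The intervals of libraries 3 and 4 overlapped (274 to 302 and 285 to 308), and those of libraries 1 and 2 lay above them. At equal depth, 42.8%, 45.2%, 39.2% and 38.7% of cells had a Tgfb1 UMI.

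Lrrc32 (chromosome 7, 98489283 to 98502181), which encodes the anchor of latent TGF-beta, had 74.4, 81.2, 24.5 and 68.3 CPM. Library 3 was the low one, with an interval of 20.6 to 28.9, and the intervals of the other 3 began at 62.8 or above. Libraries 1 and 2, and libraries 1 and 4, overlapped in their intervals. The highest level was 3.32-fold above the lowest, and 1.19-fold with library 3 left out. The share of cells with a UMI was 24.1%, 25.3%, 5.74% and 18.9%, or 4.07% in library 3 and 10.9% to 12.3% in the others at equal depth. Library 3 has few cells with an Il2ra UMI, and Lrrc32 was higher in such cells (below), so the libraries were also read within each class. In cells without an Il2ra UMI the Lrrc32 levels were 55.6, 53.3, 21.1 and 50.1, and in cells with one 93.7, 110, 56.7 and 93.6. Library 3 was the lowest in both classes.

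Nrp1 (chromosome 8, 128358604 to 128503363), which encodes neuropilin-1, a surface receptor that can bind TGF-beta and marks thymus-derived Treg cells, had 60.2, 48.2, 23.3 and 49.7 CPM. Its order was like that of Lrrc32 in that library 3 was low. Libraries 2 and 4 overlapped in their intervals, and library 1 lay above them. The highest stood 2.59-fold above the lowest, and 1.25-fold without library 3. Library 3 remained lowest in cells without an Il2ra UMI (23.0 against 40.8 to 54.3) and in cells with one (25.6 against 55.8 to 66.2). Shares at equal depth were 8.41%, 7.38%, 3.82% and 7.59%.

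For a background reading, 78 cells carried UMIs of 3 or more double-positive thymocyte genes, an earlier thymocyte stage outside the sort gate whose own use of these genes is not known here, with a median of 2176 UMIs against 3143 over all cells. Lrrc32 had a UMI in 7.69% of them (2.88% to 16.0%, 6 cells), or 3.92% of 51 at equal depth, and Nrp1 in 10.3%, or 5.88% at equal depth. The shares in library 3 before thinning, 5.74% for Lrrc32 and 4.86% for Nrp1, lay inside the intervals of these few cells (4.53% to 19.2% for Nrp1). Of the 22 such cells in library 3 itself, 1 had an Lrrc32 UMI and 0 had an Nrp1 UMI, too few for a background share of that library. Tgfb1 stood at 130 CPM in the 78 cells and Smad7 at 13.7, far under every library. Itgb8 and Itgae had a UMI in 0 of the 78, which at 3 counts allows a share of up to 3.85% (4.62% by the exact interval).

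Itgb8 (chromosome 12, 119158022 to 119238802) and Itgav (chromosome 2, 83724397 to 83806916) encode the beta and alpha chains of the activating integrin. Itgb8 had 14.1, 8.96, 8.74 and 9.58 CPM, so library 1 was high, its interval overlapping narrowly with that of library 4, and the other 3 overlapped. The 1.61-fold range was 1.07-fold at equal depth. Itgav had 9.25, 9.31, 10.8 and 9.70, with all 4 intervals overlapping and a range of 1.17-fold. Shares at equal depth were 1.59% to 1.81% for Itgb8 and 1.79% to 2.10% for Itgav, so in each library most cells had no UMI of either chain. Itgav overlaps the antisense genes Gm13684 and Dnmt3l-ps1, and Itgae overlaps Haspin. The sources used here do not say whether counting used the strand.

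Itgae (chromosome 11, 73090583 to 73147446) encodes CD103, which pairs with the beta 7 chain, binds E-cadherin and is a known TGF-beta target. It varied most, with 12.2, 10.2, 2.10 and 4.67 CPM and a 5.80-fold range. Libraries 1 and 2 overlapped in their intervals and lay above libraries 3 and 4, which overlapped narrowly (1.08 to 3.67 and 3.32 to 6.39). Without library 3 the range was still 2.60-fold. Counts were small, 96, 115, 12 and 39 UMIs, and shares at equal depth were 1.67%, 1.17%, 0.308% and 0.972%.

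The receptor genes differed in where library 3 lay. Tgfbr1 (chromosome 4, 47353222 to 47414931), the signalling kinase, had 81.6, 93.0, 56.7 and 77.6 CPM, with library 3 low. Tgfbr2 (chromosome 9, 116084293 to 116175360), the ligand-binding chain, had 31.1, 35.0, 47.7 and 28.1, with library 3 high. For both genes the interval of library 3 was apart from the other 3. UMIs of Tgfbr1 per UMI of Tgfbr2 were therefore 2.63, 2.66 and 2.76 in libraries 1, 2 and 4, and 1.19 in library 3. These are ratios of 3' tags, which are not scaled to transcript length and serve only to compare libraries.

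Depth bore differently on the receptor genes. At equal depth Tgfbr1 still ranged 1.97-fold, with shares of 14.7%, 15.1%, 8.45% and 11.4%. Tgfbr2 ranged 1.36-fold, under the 1.5-fold rule, with shares of 6.10%, 7.38%, 7.46% and 5.64%. Before thinning, the Tgfbr1 levels in cells with an Il2ra UMI were 88.1, 90.2, 75.0 and 79.8. That is a 1.20-fold range with overlapping intervals between library 3 and each of the others. Library 3 gave 41 UMIs in 139 such cells. At equal depth these levels were less even, at 114, 90.4, 72.8 and 79.0. In cells without an Il2ra UMI the range before thinning was 1.75-fold, with 54.7 in library 3.

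Smad3 (chromosome 9, 63646767 to 63757994), which carries the signal to the nucleus, had 4.82, 4.97, 7.87 and 6.35 CPM. All 4 intervals overlapped, and with 192 UMIs it stayed under the 200 needed for a call. Smad7 (chromosome 18, 75367529 to 75395935), the inhibitory feedback gene, had 116, 130, 156 and 143. Library 1 was lowest and library 3 highest, 1.35-fold apart, and neighbours in the order 1, 2, 4, 3 overlapped. At equal depth 22.9%, 23.1%, 23.5% and 24.1% of cells had a Smad7 UMI, shares that overlapped in every interval. Over the system, library 3 lay below all others for 6 genes and above all others for 4, with Smad3, under 200 UMIs, among the 4. Over the 8071 genes it lay below for 39.1% and above for 39.9%, so neither side is particular to these genes. At equal depth library 3 lay within the range of the others for Itgb8, Smad3 and Smad7.

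Cells with at least 1 Il2ra UMI (630, 967, 139 and 701 in libraries 1 to 4) were set against cells with none (979, 1485, 1898 and 1474). Il2ra is induced by antigen receptor and IL-2 signals, and in the thymus its protein CD25 marks Treg cells and part of their precursors. Cells with a UMI were deeper, with a median of 4411 UMIs against 2783, so ratios are also given within strata of depth and at equal depth. The ratio of levels was taken within libraries and combined over them by the Mantel-Haenszel estimate. A gene was called when it differed at least 1.5-fold and in the same direction in all 4 libraries.

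Lrrc32 was the 1 gene called of the 9, against 3.96% of the 8071 genes called higher. Its levels in cells with and without an Il2ra UMI were 93.7 and 55.6 in library 1, 110 and 53.3 in library 2, 56.7 and 21.1 in library 3, and 93.6 and 50.1 in library 4. The intervals of the classes were apart in every library. The combined ratio was 1.91-fold, a log2 ratio of 0.94, with 0.75, 1.04, 1.43 and 0.90 in libraries 1 to 4. Within depth strata the log2 ratio was 1.01, and at equal depth 1.11. At equal depth, with libraries pooled, 16.8% of cells with an Il2ra UMI had an Lrrc32 UMI, against 6.68% of cells without. By library these shares were 16.7% against 7.26%, 18.1% against 8.43%, 10.9% against 3.48% and 16.1% against 8.09%.

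**Figure D2:**
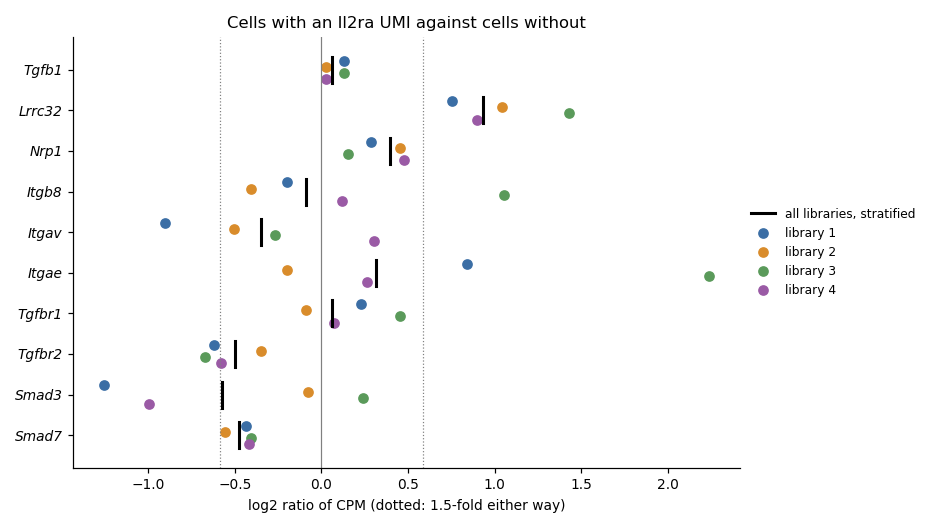
Log2 ratio of CPM in cells with an Il2ra UMI to cells without (x axis) for each gene (y axis); dots are libraries 1 to 4, black bars the combined ratio, dotted lines 1.5-fold either way. Lrrc32, at 0.94, is the gene whose bar passes the dotted line with all 4 dots on 1 side; Smad3, near the lower line, has too few UMIs and dots on both sides.

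Nrp1 was higher in cells with an Il2ra UMI in all 4 libraries, with 66.2 against 54.3, 55.8 against 40.8, 25.6 against 23.0 and 59.5 against 42.7 CPM. The intervals overlapped in libraries 1 and 3, and the combined log2 ratio of 0.40 was under the rule (0.34 within depth strata, 0.54 at equal depth). Tgfb1 was close to even, at 0.06 (0.07 and 0.08), and so was Tgfbr1, at 0.06 (0.13 both ways). The log2 ratios of all 8071 genes had a median of -0.03.

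Smad7 and Tgfbr2 lay on the other side. Smad7 levels with and without an Il2ra UMI were 98.4 and 133, 105 and 154, 121 and 160, and 119 and 159, lower with Il2ra in every library. Its log2 ratio was -0.48, and the 4 libraries fell between -0.56 and -0.40. The intervals were apart in libraries 1, 2 and 4. Within depth strata the ratio was -0.16, and at equal depth -0.39. At equal depth, with libraries pooled, 20.2% of cells with an Il2ra UMI and 24.9% without had a Smad7 UMI. By library these shares were 20.6% and 24.4%, 19.1% and 25.8%, 21.7% and 23.6%, and 21.1% and 25.7%. Tgfbr2 levels were 24.4 and 37.5, 30.8 and 39.2, 31.1 and 49.5, and 21.8 and 32.7, with intervals apart in libraries 1 and 4. The log2 ratio was -0.50, with -0.21 within depth strata and -0.43 at equal depth. Neither passed 1.5-fold, so 0 of the 9 were called lower, against 3.06% of the 8071.

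The integrin chains gave no common direction. Itgae was higher with Il2ra in libraries 1, 3 and 4 and lower in library 2 (9.48 against 10.9), with a combined log2 ratio of 0.32. It rested on 4 UMIs in the 139 cells of library 3. The Itgae ratio was 0.97 at equal depth and 0.08 within depth strata. Shares at equal depth, with libraries pooled, were 1.69% of cells against 0.729%. By library they were 2.90% against 0.855%, 1.17% against 1.16%, 1.55% against 0.201% and 1.33% against 0.786%. Itgb8 had a ratio of -0.09 that turned with the handling of depth, to -0.30 within strata and 0.28 at equal depth. Itgav had -0.35 (-0.14 and -0.23), and each of these had libraries on both sides of 0. Smad3 had -0.58 over 57 and 135 UMIs (-0.20 and -0.69) and was not called.

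**Figure D3:**
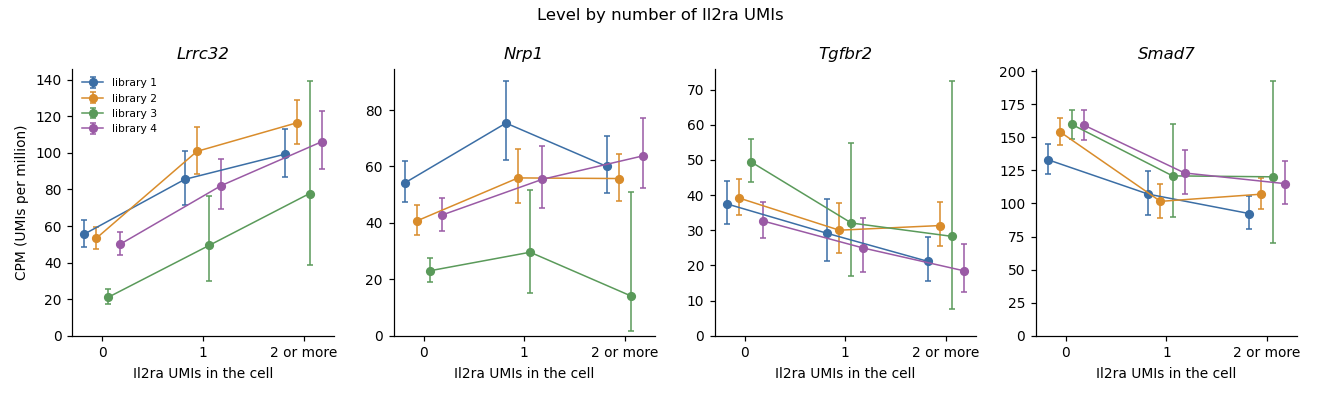
Level (y axis, CPM) of Lrrc32, Nrp1, Tgfbr2 and Smad7 in cells with 0, 1, or 2 or more Il2ra UMIs (x axis) in each library, with exact Poisson 95% intervals. Lrrc32 is higher at each step in all 4 libraries, from 53.3 to 117 in library 2; Smad7 is highest at 0 Il2ra UMIs in all 4.

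Lrrc32 was graded by the number of Il2ra UMIs. In cells with 0, 1, and 2 or more it stood at 55.6, 85.5 and 99.3 in library 1, at 53.3, 101 and 117 in library 2, at 21.1, 49.3 and 77.8 in library 3, and at 50.1, 82.1 and 106 in library 4. The step from 0 to 1 exceeded the intervals in all 4 libraries, while the step from 1 to 2 or more stayed within overlapping intervals in all 4. Depth was graded as well, with medians of 2783, 3984 and 4887 UMIs over all libraries. At equal depth, with libraries pooled, the Lrrc32 shares were 6.68%, 15.8% and 17.8%. From 1 to 2 or more, the share at equal depth rose in libraries 1 (15.2% to 18.0%) and 4 (13.5% to 19.2%). It fell in libraries 2 (19.0% to 17.2%) and 3 (11.3% to 9.38%), so that step had no common direction once depth was held. Smad7 was at 133, 107 and 92.4 in library 1, at 154, 102 and 107 in library 2, at 160, 121 and 120 in library 3 and at 159, 123 and 115 in library 4. It was highest at 0 in every library, with no common step from 1 to 2 or more.

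Marker lists also differed by Il2ra detection. Of 10 Treg identity markers, 4 were called higher with Il2ra, with a summed level of 4790 to 5441 CPM over the libraries against 3099 to 3791 without. Foxp3, among the 10, had no common direction, and its intervals overlapped in every library. With and without Il2ra it stood at 16.2 and 12.5, 11.5 and 13.7, 5.49 and 14.7, and 11.2 and 14.0 in libraries 1 to 4. Of 8 G2 and M phase genes 4 were higher (139 to 962 against 76.4 to 717), and of 8 S phase genes 5 (565 to 984 against 235 to 703). Without the cells with G2 and M markers the Lrrc32 log2 ratio was 1.04. Of 4 double-positive thymocyte genes with enough UMIs, 2 were lower with Il2ra (34.4 to 188 against 55.3 to 152 for the summed list). In the list for NK, NKT and gamma delta T cells the 1 gene with enough UMIs was higher (104 to 248 against 27.7 to 153). The part of the Treg identity, thymocyte and NK lists in the member ratios was not tested.

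The authors' second table names 7231 cells as G1, the phase before DNA synthesis, which leaves 1042. Of the 9 genes, 0 were called higher in the G1-table cells, against 3.44% of the 8071, and 0 lower, against 7.3%. Nrp1 came nearest to the rule on the low side, with levels in G1-table and other cells of 58.4 and 67.5, 42.8 and 71.2, 21.9 and 36.8, and 47.2 and 64.0 in libraries 1 to 4. It was lower in the G1 table in all 4, with intervals apart in library 2. The combined log2 ratio was -0.50, with -0.53 within depth strata and -0.70, past 1.5-fold, at equal depth.

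**Figure D4:**
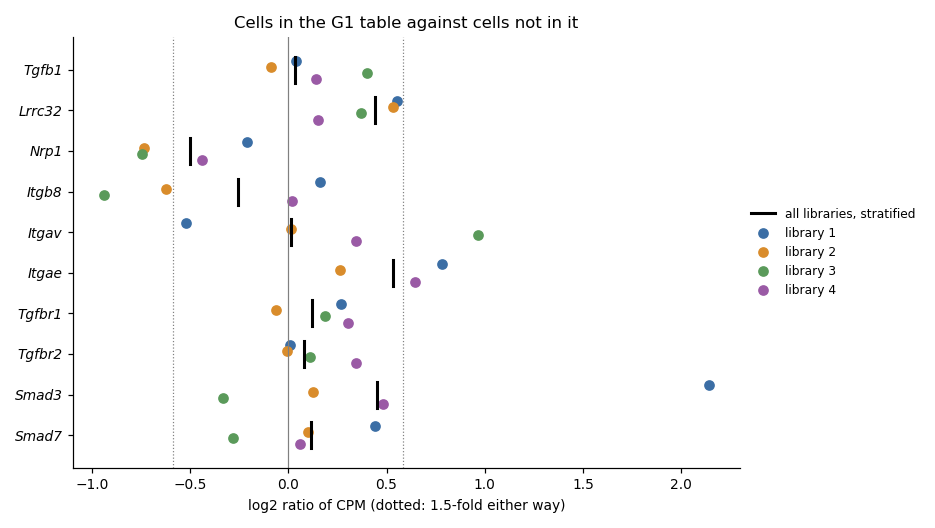
Log2 ratio of CPM in G1-table cells to other cells (x axis) for each gene (y axis); dots are libraries, black bars the combined ratio, dotted lines 1.5-fold either way. No bar passes a dotted line; Nrp1 at -0.50 and Itgae at 0.53 come nearest, and Itgae has no dot for library 3, where the other cells had 0 UMIs.

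Lrrc32 was higher in the G1 table in all 4 libraries, with 79.4 against 54.0, 86.4 against 59.7, 25.0 against 19.4 and 69.3 against 62.4. Its combined log2 ratio was 0.44, with 0.21 within depth strata and 0.59, just past 1.5-fold, at equal depth. Itgae had a ratio of 0.53 from 35 UMIs in all the other cells, with 0 UMIs in library 3, whose interval reached 7.14 CPM. Tgfb1, Itgav, Tgfbr2 and Smad7 were close to even, at 0.03, 0.01, 0.08 and 0.11.

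The cells outside the G1 table were of different kinds, and Smad7 differed between them. Of 539 cells with UMIs of 3 or more G2 and M phase genes, 404 (75.0%) were outside it. The other 638 outside cells had a median of 2081 UMIs and 4.49% mitochondrial UMIs, against 2.24% in the G1 table. With libraries pooled, Smad7 stood at 89.2 CPM in the cells with G2 and M markers and at 199 in those 638 cells. It stood at 140 in G1-table cells without such markers. Without the marker cells the Smad7 log2 ratio was -0.49 in place of 0.11. For Nrp1 the pooled levels were 65.4, 54.1 and 43.0, so both kinds lay above the G1-table cells. Library 3 held 12 of the 539 marker cells and 253 of the 1042 outside cells. The pooled levels therefore mix library with kind of cell. Erythroid transcripts stood at 0 to 20193 CPM in the outside cells of the 4 libraries, against 0 to 52.9 in the G1 table, and their part was not tested.

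To ask which genes of the system were found in the same cells, the number of cells with UMIs of both genes was divided by the number expected from each gene's share within library and depth decile. Of 45 pairs, 39 had at least 20 expected cells, with a median ratio of 1.03 and a range of 0.760 to 1.46. For 4 the counting interval lay above 1 and for 0 below. Intervals were not adjusted for the number of pairs.

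Those 4 pairs all held Lrrc32 or Nrp1. Nrp1 and Itgae were found together in 67 cells against 46.0 expected, a ratio of 1.46 (1.13 to 1.85), and in no library under 1.37. The 1.37 was that of library 3, where only 9 cells had an Itgae UMI. It rests on very few joint cells and adds little to the other libraries. Lrrc32 and Nrp1 shared 350 cells against 295 expected, 1.19 (1.07 to 1.32), above 1 in every library. Lrrc32 and Itgb8 shared 102 against 82.9, 1.23 (1.00 to 1.49), again above 1 in every library. Lrrc32 and Tgfbr1 shared 524 against 478, 1.10 (1.00 to 1.19), with library 4 at 0.984. With all genes compared, the bulk of ratios lay between 0.814 and 1.21 for Lrrc32 and between 0.812 and 1.29 for Nrp1. It lay between 0.753 and 1.33 for Itgae, 0.738 and 1.32 for Itgb8, and 0.826 and 1.20 for Tgfbr1. Nrp1 with Itgae was above both of its ranges. Lrrc32 with Nrp1 and Lrrc32 with Tgfbr1 were inside the ranges of both genes. Lrrc32 with Itgb8 was just above the Lrrc32 range and inside the Itgb8 range.

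**Figure D5:**
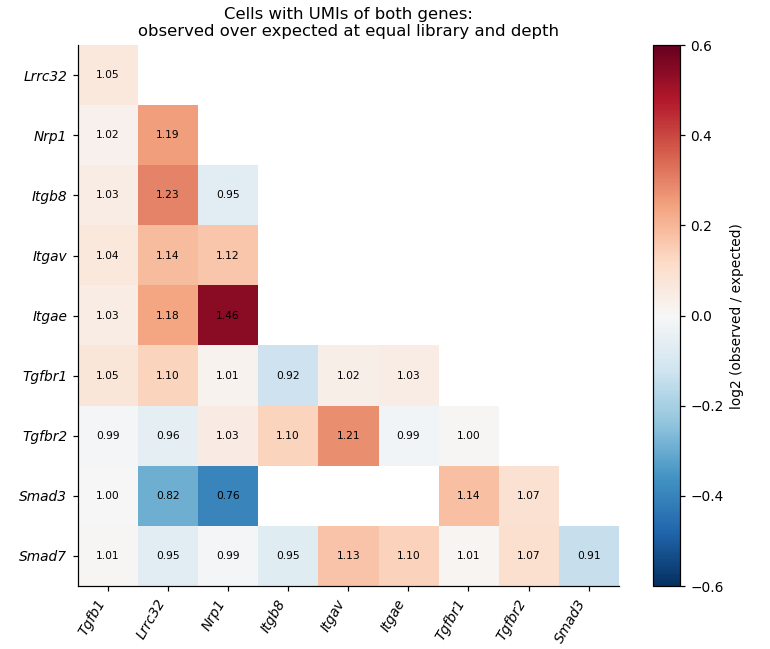
Observed over expected number of cells with UMIs of both genes, for each pair (rows and columns are genes; colour is the log2 of the printed ratio; blank where fewer than 20 cells were expected). Nrp1 with Itgae, at 1.46, is the darkest cell, and Tgfbr1 with Tgfbr2 is at 1.00.

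The receptor genes were found together no more often than expected, in 276 cells against 275, 1.00 (0.889 to 1.13). The integrin partners Itgb8 and Itgav shared 15 cells against 15.2 expected, too few for the rule. Itgb8 and Itgae, also under the rule and named after their values were seen, shared 28 cells against 14.4 expected (1.29 to 2.81 in ratio), with 1.86 in library 4 to 2.05 in library 3. With 9 cells with an Itgae UMI in library 3 and 47 with an Itgb8 UMI, its ratio rests on very few joint cells. Smad3 was at 0.816 with Lrrc32 and 0.760 with Nrp1, below 1 in all 4 libraries for both, with intervals that held 1. Il2ra was found with Lrrc32 in 891 cells against 660, a ratio of 1.35, against a median of 1.01 for Lrrc32 with 9523 genes.

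The same ratio named the 5 genes most often found with each member, among 4214 to 10704 genes with at least 20 expected cells. They are the extremes of many ratios and are given as a description. For Lrrc32 they were Mir155hg, the host transcript of miR-155, at 1.68, Rragd, Nr4a3, a nuclear receptor gene induced by antigen receptor signals, at 1.62, Mgll and Yes1. For Itgb8 they were Actg2 at 2.14, Jaml, Tmem121, the chemokine gene Ccl5 at 1.87 and the adenosine receptor gene Adora2a. For Itgae they were Ap1m2 at 2.17, Ccl5 at 2.05, the IL-7 receptor gene Il7r at 1.91, Ttyh3 and Pglyrp1. Ccl5 was thus among the 5 for both Itgb8 and Itgae, above 1 in every library for Itgb8 and in 3 of 4 for Itgae. For Nrp1 they were Nicn1 at 1.76, Plcl1, Mlf1, Tbc1d30 and Nfil3.

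For Tgfbr2 the first was the aquaglyceroporin gene Aqp3 at 1.74, followed by Adcy7, Mcoln3, Troap and Arl13b at 1.51 or less. For Tgfbr1 the first was Pecr at 1.56, for Itgav Fam8a1 at 1.71, for Smad3 Clp1 at 1.79 and for Smad7 Fbxo27 at 1.47. For Tgfb1, with a UMI in most cells, the first was Zfp948 at 1.24, with an interval that held 1 (0.839 to 1.75).

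Other genes of the pathway were read from 5 lists of 56 genes, of which 25 had 200 UMIs. With Il2ra detection, 0 of the 25 were called higher and 4 lower, against 3.96% and 3.06% of all genes, and the median log2 ratio was -0.02 against -0.03. The 4 were the integrin chains Itgb3 at -0.91 and Itga4 at -0.89, the ubiquitin ligase gene Smurf2, whose protein is recruited to receptors by SMAD7, at -0.73, and Id2, a helix-loop-helix inhibitor and TGF-beta target, at -0.64. Within depth strata they stood at -0.47, -0.48, -0.62 and -0.53. By list, 2 of 4 integrin chains were lower, 1 of 12 SMADs and SMAD regulators, 1 of 5 target genes, 0 of 2 ligand and latency genes and 0 of 2 other receptor genes. In the G1 contrast 1 of the 25 was higher, the transcriptional repressor gene Tgif2 (19.8 against 10.5 CPM, log2 ratio 0.85), and 0 were lower, against 3.44% and 7.3% of all genes. The median was 0.06, against 0.05 over all genes.

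Across libraries, 7 of the 25 ranged at least 1.5-fold, a share close to the 27.8% of all 8071 genes. Library 3 was the highest for 6 of the 7. Over the 8071 genes it was the highest for 39.9%, but that share covers genes of any range. It is therefore no background for genes picked for ranging at least 1.5-fold. Smurf2 had 8.74, 9.58, 17.8 and 7.31 CPM in libraries 1 to 4, Id2 had 23.3, 24.9, 50.4 and 29.1, and Itga4 had 43.0, 40.4, 85.5 and 63.0. Itgb3, Zeb1 and Runx1 followed with ranges of 1.52, 1.58 and 1.67. Ldlrad4, whose protein restrains receptor signalling, was lowest in library 3 (24.7 against 32.0 to 39.5).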

How the data were processed

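Single-cell 3' RNA was measured in 4 samples of sorted thymic Treg cells. The authors deposited raw UMI counts per gene and cell (27998 genes, 8273 cells), and the submitters' processing notes name the mm10 build, R 3.4.1, Cell Ranger 2.0.2 and CASAVA 2.20. They also deposited log2 values for 9571 genes in 7231 cells, named G1 in the table, each the log2 of a count divided by 1 factor per cell, plus 1. The choice of cells, genes, factors and phases, and any treatment of doublets, are not given in the sources used here. No doublet caller was run. All 8273 columns are unassigned to a sample. Symbols came from GENCODE M21 (GRCm38) for 27645 identifiers, and 353 had none. Coordinates are of that annotation.

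Counts were summed by library and class of cell. Ratios were Mantel-Haenszel ratios over libraries, with 0.5 UMIs added for the log, for genes with at least 200 UMIs, and a library gave a direction with at least 20 cells on each side. Thinning drew 1811 UMIs, the 10th percentile, from each cell and left out 826 shallower cells (52 to 415 per library). Depth strata were quintiles, and deciles for joint detection. Only the ratios by Il2ra detection and G1 table, and their calls, were tried on simulated Poisson counts. The members and lists were chosen with earlier results of these data known. Named genes were all members, up to 5 pathway genes each way past the rule, the 5 genes most often found with each member, and Il2ra, Il2, Il15 and Foxp3. Software was Python 3.11.15 with scipy 1.17.1, numpy 2.4.6, matplotlib 3.10.9 and pandas 2.3.3. Alternatives covered scaling, cell filters, thinning, weighting, the UMI minimum, Il2ra definitions, the log2 table and leaving out libraries.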

Additional observations from a re-analysis of the deposited data

Results flagged for a closer look

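Of 29 sets of 4 values examined for 1 library far from the rest, 1 stood out: Itgb8, with 14.1 CPM in library 1 and 8.74 to 9.58 in the other 3. The gap was 0.843 of the whole range, above Dixon's critical value for 4 values. Chance gives about 1 such set in 20, and 8.12% of the 8071 genes stood out in the same way. The libraries are not 1 labelled group, so the value describes the library and nothing more. At equal depth Itgb8 stood at 9.58 in library 1, inside the range of the others, with the highest 1.07-fold above the lowest.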

How the results depend on the processing

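No paired analysis was possible because each genotype has 1 sample, the columns carry no sample or replicate number, and no result comes from a test. The comparison of each knockout with its wild type was not run, since no file maps a suffix to a sample. Alternatives without cells carrying G2 and M markers, or with cells lacking Il2ra alone, were chosen after seeing the data. Here a count of genes was the same when within 1.5-fold of the main count, so 6 and 4 count as the same. An uncalled log2 ratio or a joint-detection ratio was the same when it shifted by less than its standard deviation over libraries. For called genes and for library ranges, the same means that the gene kept its side of the rule. Of 156 summary values under alternatives 117 stayed the same in this sense and 39 moved. Of single-gene values 457 stayed the same, 21 moved, 18 newly passed the rule and 9 no longer did, and no value past the rule changed sign. In the G1 contrast without cells carrying G2 and M markers, Smad7 went from 0.11 to -0.49 and Tgfbr2 from 0.08 to -0.38, neither past the rule. Lrrc32 was called higher with Il2ra under every alternative, with log2 ratios of 0.77 to 1.34. Members called higher with Il2ra numbered 1, and 2, with Itgae added, under thinned counts, each cell counted alike and the authors' log2 values (1 to 2 with 1 library left out, 2 without library 2). Members called lower numbered 0, and 1, Tgfbr2, with each cell counted alike (0 to 1 with 1 library left out: Tgfbr2 without library 2, Itgav without library 4). Pathway genes called higher with Il2ra numbered 0, but 1 under thinned counts, depth quintiles, a 50-UMI minimum and the authors' values, and 2 with no UMI minimum or with Il2ra read in thinned counts. Those called lower numbered 4, but 2 under thinned counts, under Il2ra read in thinned counts and under the authors' values, and 1, Smurf2, within depth quintiles (4 to 5 with 1 library left out). In the G1 contrast 0 members were called higher and 1 was called under other totals, cell filters (500 genes and 10% mitochondrial, or no top 2% of cells by UMIs) and without G2 and M marker cells (Itgae), and under thinned counts (Lrrc32); with 1 library left out it was 0 to 1. Members called lower there numbered 0, and 1 under thinned counts (Nrp1), with each cell counted alike and without G2 and M marker cells (Itgb8 in both), and 0 to 1 with 1 library left out (Nrp1 without library 1). Pathway genes called higher there numbered 1, but 2 with a 50-UMI minimum, 4 with none and 0 without G2 and M marker cells (1 to 2 with 1 library left out). Those called lower numbered 0, but 1 without the top 2% of cells, 1 with either UMI minimum changed, 3 with each cell counted alike and 5 without G2 and M marker cells (0 to 1 with 1 library left out). Members past 1.5-fold across libraries numbered 6, 4 under thinned counts and 2 to 6 with 1 library left out, the 2 being without library 3. The cause of these shifts was not tested. Depth limits Itgb8, Itgav, Itgae and Smad3, with 192 to 342 UMIs each over all cells.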
